A study of Homo sapiens with 9 samples.

Results

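Collagens and laminins are the main structural proteins that cells lay down around themselves. The genes described here are the 56 protein-coding genes, of 58735 genes in the deposited count table, whose symbol is that of a collagen alpha chain (44 genes) or of a laminin alpha, beta or gamma chain (12 genes). The rule uses the symbol and no measured value, though these families were picked for description with earlier results of the data known. RNA was measured by bulk RNA sequencing in 9 cultures of FaDu, an established line of squamous carcinoma from the human hypopharynx. The cultures fall into 3 groups of 3 biological replicates: control cells (genotype labelled WT), cells labelled with a knockdown of AMIGO2, and cells labelled with that knockdown and with overexpression of CAPN2. No treatment is given for any group, and all groups share the line and the culture medium, so every difference is one between cultures of 1 tumour line. The labels do not say how the knockdown or the overexpression was made, or whether clones were used.

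A collagen molecule is a triple helix of alpha chains, and its type sets what it builds: fibrils, the mesh of basement membranes, beaded filaments, anchoring fibrils or transmembrane proteins. A laminin is a cross-shaped trimer of 1 alpha, 1 beta and 1 gamma chain, named by its chains. Squamous epithelium rests on a basement membrane of type IV collagen and laminins, to which its basal cells are held by hemidesmosomes. There laminin-332, whose chains include LAMA3 and LAMB3, and the transmembrane collagen XVII join the cell to the membrane, and anchoring fibrils of collagen VII tie the membrane to the tissue beneath.

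The labels were first checked against the 2 genes they name. Levels are given as CPM, each gene's share of the counts of a library on a common scale (TMM). AMIGO2 stood at 29.5, 26.1 and 27.2 CPM in control, at 24.5, 31.3 and 27.3 CPM under the knockdown label and at 42.8, 35.3 and 38.8 CPM in cells also labelled as overexpressing CAPN2. AMIGO2 was thus no lower in the 2 sets that carry its knockdown label, and they are called below the knockdown-labelled and the CAPN2-labelled libraries. Its log2 difference from control was 0.0065 ± 0.115 SE in the knockdown-labelled libraries (edgeR adjusted p = 0.971). In the CAPN2-labelled libraries AMIGO2 was called higher than in control, against its label (0.50 ± 0.114, adjusted p = 0.00106). CAPN2 stood at 462 ± 13.9, 418 ± 20.3 and 499 ± 1.29 CPM in the same order (SD, n = 3). In the CAPN2-labelled libraries it was above the knockdown-labelled ones (log2 0.26 ± 0.0794 SE, edgeR adjusted p = 0.012), and its difference from control did not pass (0.11 ± 0.0794, adjusted p = 0.254). Against control, neither gene thus differed in the direction its label names by an amount that passed. Whether labels and libraries were matched correctly was not tested, and each direction below is one between libraries as labelled. Libraries held between 15158607 and 19737562 counts, so that 3 counts were worth between 0.152 and 0.198 CPM. The knockdown-labelled libraries were less alike than the others, with a mean chi-square per gene of 20.9 to 21.5 between them, against 2.69 to 7.52 within the other groups. All 10 squamous markers were expressed, with summed levels of 8126 to 8636 CPM in control, 4277 to 5383 CPM in the knockdown-labelled and 4791 to 5391 CPM in the CAPN2-labelled libraries. Of 10 fibroblast markers only S100A4 passed the filter on low counts, and DPT, LUM, PDGFRA and TCF21 had 0 counts in every library. Of 7 blood and immune markers only CD14 passed it, and HBB had 0 counts. That list summed to 14.7 to 18.6 CPM in control, 18.9 to 25.3 CPM in the knockdown-labelled and 5.68 to 9.06 CPM in the CAPN2-labelled libraries, and its part in the results was not tested.

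Of the 56 genes, 35 had enough counts to be tested (edgeR's filterByExpr, at least 10 counts) and 21 were low-count genes. The low-count genes had between 0 and 75 counts over all 9 libraries together and at most 25 in 1 library. They comprised 20 collagens and the laminin gene LAMB4, and 7 of them had no more than 3 counts in all. COL1A2, which encodes the second chain of type I collagen, had 3 counts over the 9 libraries, and COL3A1, the type III collagen of soft connective tissue, had 13. COL6A3, the third chain of the common type VI collagen, had 2 counts, and COL9A1 had 0. The other low-count genes were COL2A1, COL24A1, COL10A1, COL6A5, COL6A6, COL9A2, COL14A1, COL19A1, COL20A1, COL21A1, COL22A1, COL13A1, COL23A1, COL25A1, COL15A1 and COL26A1. All 5 laminin alpha genes and all 6 type IV collagen genes were among those tested. LAMA1, LAMA4, COL4A3 and COL8A1 passed the filter only with the libraries of the group in which they were highest. COL8A2 passed it only through control and knockdown-labelled libraries, where its mean was higher than in the CAPN2-labelled ones, and no control library of COL5A3 reached it. For these genes a high value in those groups was a condition of their being tested.

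The genes differed far more in level among themselves than between groups. LAMB3 led when levels were divided by gene length, at 144 CPM per kilobase averaged over the 9 libraries. LAMA5 (49.2), COL17A1 (47.8) and LAMC1 (39.4 CPM per kilobase) were also high, above LAMB2 (15.04), COL7A1 (13.4), LAMB1 (12.7) and COL12A1 (9.53). The lower genes ran from COL18A1 at 5.46 down to LAMA1 at 0.0275 CPM per kilobase. LAMA5 and COL17A1 did not keep this order in the separate groups: COL17A1 and LAMA5 stood at 47.0 and 46.5 CPM per kilobase in control, and at 47.8 and 33.1 in the knockdown-labelled libraries. The gene lengths are those of the deposited table and count every annotated exon, which lowers the value of genes with many transcripts. Laminin genes took between 68.6% and 74.2% of the CPM of the tested genes in single libraries.

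**Figure D1:**
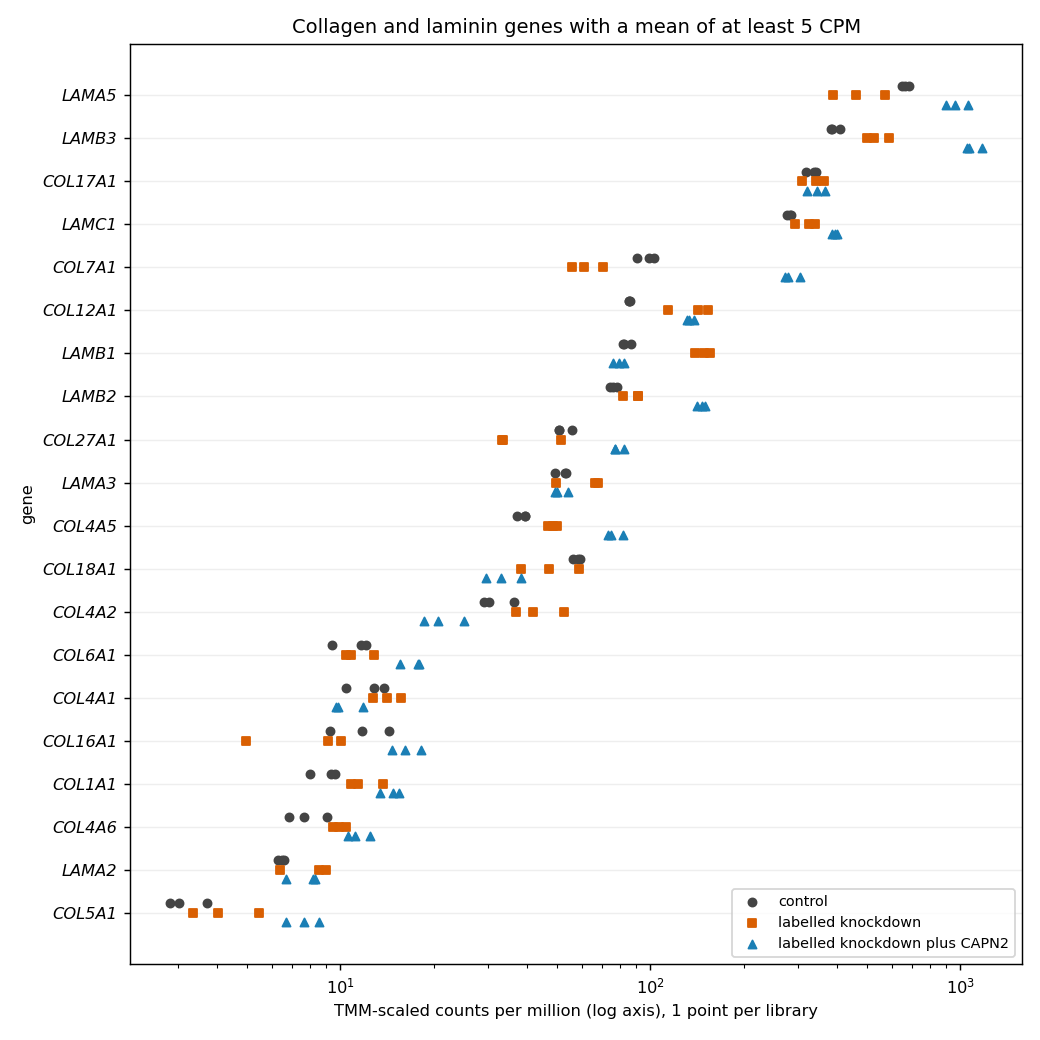
TMM-scaled CPM (log axis) of the collagen and laminin genes with a mean of at least 5 CPM (all but 1 of 21), with 1 point per library and 3 libraries per group. COL7A1 runs from 55.8 to 70.3 CPM in the knockdown-labelled and from 272 to 305 CPM in the CAPN2-labelled libraries, while the 3 groups of COL17A1 lie over each other.

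Summed over the tested genes, the level was 2434, 2541 and 2491 CPM in control, 3068, 2828 and 2533 CPM in the knockdown-labelled and 3974, 4095 and 4385 CPM in the CAPN2-labelled libraries. The CAPN2-labelled libraries were the highest and overlapped neither other group, whereas the third knockdown-labelled library lay within the range of control. In these bulk samples fewer cells of a type and less RNA per cell cannot be told apart.

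Between the knockdown-labelled libraries and control, 9 of the 35 tested genes were called higher, 5 lower, and 21 did not pass (edgeR quasi-likelihood test, adjusted p under 0.05). The 14 calls are 40.0% of those tested, against 34.6% of all 16812 genes tested, with 16.0% of all genes called higher and 18.5% lower. The median log2 fold change was 0.21, and -0.01 over all genes tested. The values of these 2 groups were fully separate for 19 of the 35 genes, or 54.3%, against 44.7% of all genes. Without the first control library 9 of 37 tested genes were called, or 24.3%, against 27.6% of all genes. Without the first knockdown-labelled library 13 of 37 were called, or 35.1%, against 37.0%. The split of 9 higher and 5 lower became 12 and 4 with upper-quartile factors, where all genes split into 3133 higher and 2682 lower. It became 17 and 3 once the trend of each library with GC content and gene length was removed (all genes 2816 and 3356). It became 7 and 6 without the third control library (all genes 2140 and 2428) or without the first knockdown-labelled one (3061 and 3366). Leaving out the first control library gave 6 and 3 (2246 and 2577).

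Between the CAPN2-labelled and the knockdown-labelled libraries 15 genes were called higher, 6 lower, and 14 did not pass. These 21 calls are 60.0% of the tested genes, against 49.2% of all genes (23.7% higher and 25.6% lower). The median was 0.45, and 0.01 over all genes. Libraries did not overlap for 24 of the 35, or 68.6%, against 54.0% of all genes.

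Against control, the CAPN2-labelled libraries had 21 genes called higher, 3 lower, and 11 not past the threshold. That is 68.6% of the tested genes, against 56.3% of all genes, of which 27.9% were higher and 28.4% lower. The median was 0.58, and 0.02 over all genes tested. For 27 of the 35, or 77.1%, libraries did not overlap, against 66.9% of all genes. The 3 genes called lower were COL18A1, COL4A2 and COL9A3. The 3 comparisons share libraries, so their counts are not independent of each other. The counts also hold genes that, as given above, were tested only through groups in which they were high. LAMA4 and COL5A3 count as higher in the first comparison. In the second LAMA4 counts as lower, and LAMA1 and COL4A3 count as higher. In the third COL5A3, LAMA1 and COL4A3 count as higher.

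**Figure D2:**
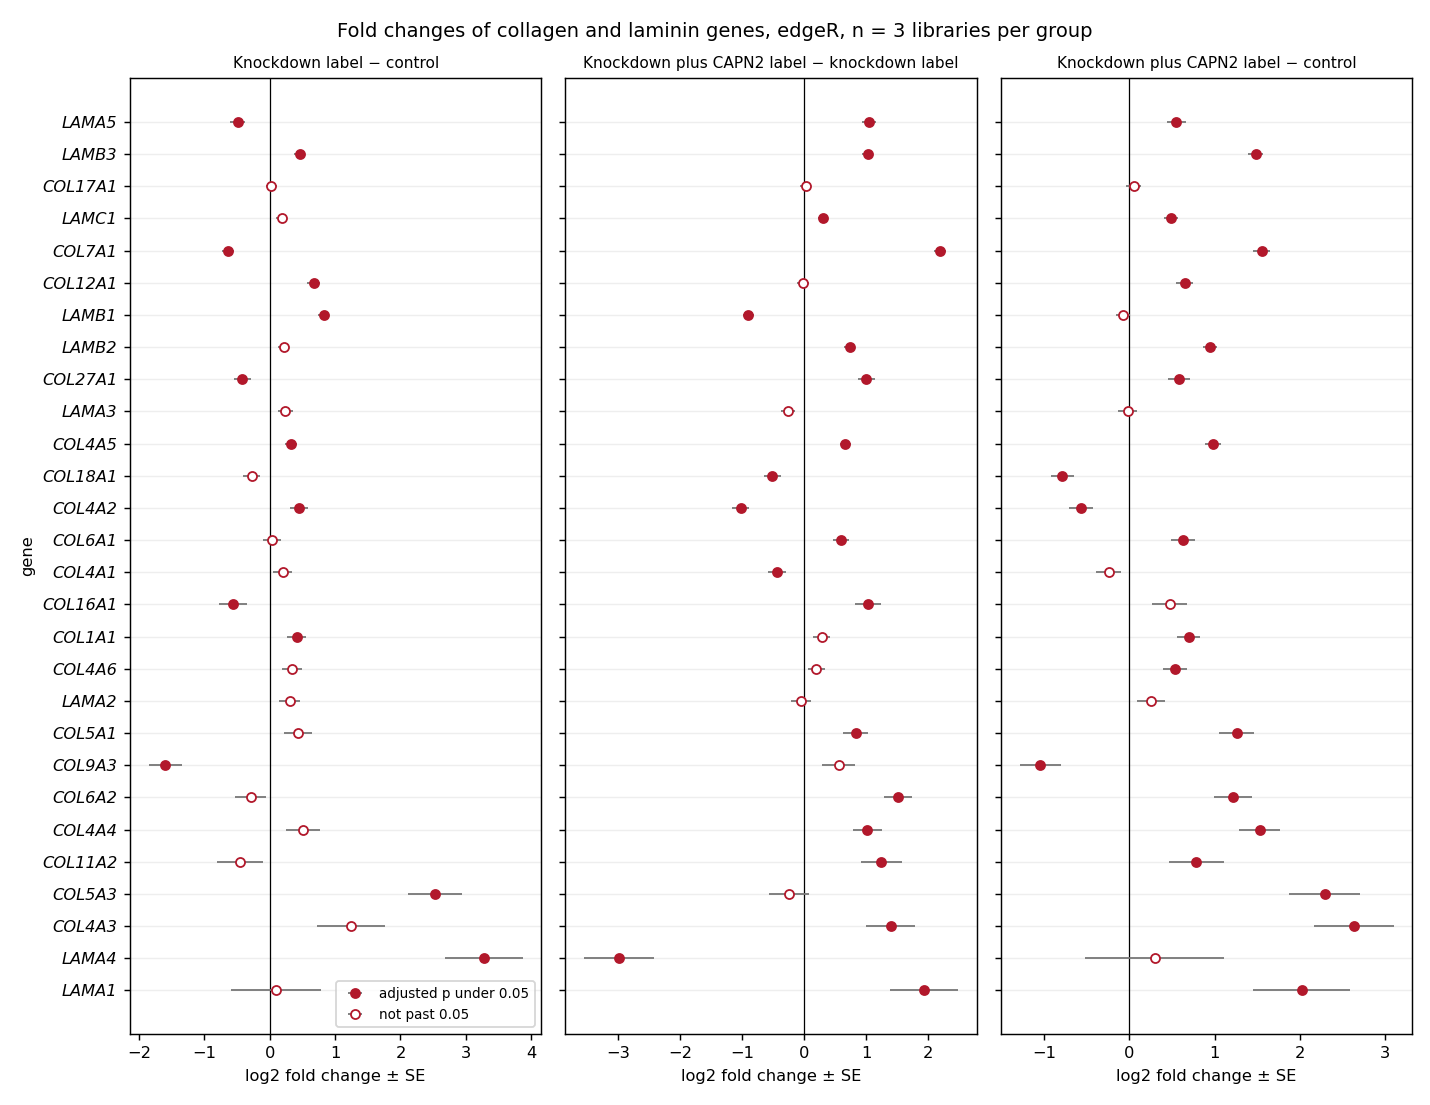
Log2 fold change with its SE (edgeR) for the genes with a mean of at least 5 CPM or a called change of at least 2-fold (all but 1 of 29), in the 3 comparisons, with filled points for adjusted p under 0.05. In the middle panel COL7A1 stands farthest to the right at 2.19, and COL17A1 lies near 0 in all panels. The points of LAMA4, LAMA1, COL4A3 and COL5A3 are a description, filled or not. These genes reached the filter only through groups in which they were high.

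Of the laminin-332 chains, LAMB3 rose in both labelled sets, while no comparison of LAMA3 passed. LAMB3, the beta chain (ENSG00000196878, GRCh38 chromosome 1, 209614870 to 209652466, minus strand), stood at 383, 408 and 386 CPM in control, at 588, 527 and 501 CPM in the knockdown-labelled and at 1047, 1067 and 1173 CPM in the CAPN2-labelled libraries. The 3 groups did not overlap and rose in that order. LAMB3 rose 1.37-fold under the knockdown label (log2 0.46 ± 0.0874 SE, edgeR adjusted p = 0.000501) and a further 2.03-fold in the CAPN2-labelled libraries (log2 1.02 ± 0.0878, adjusted p = 2.24e-08).

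LAMA3, the alpha chain (ENSG00000053747, chromosome 18, 23689443 to 23956222, plus strand), stood at 49.1, 53.4 and 53.0 CPM in control, at 66.2, 67.9 and 49.7 CPM in the knockdown-labelled and at 54.1, 49.1 and 50.0 CPM in the CAPN2-labelled libraries. The third knockdown-labelled library lay among the control values and the other two above them. No comparison of LAMA3 passed, with 95% intervals of the log2 fold change from 0.01 to 0.47 for the knockdown label against control and from -0.25 to 0.21 for the CAPN2 label against control. Without the third knockdown-labelled library LAMA3 was called higher under the knockdown label (log2 0.37, adjusted p = 0.00473) and lower in the CAPN2-labelled libraries than in the knockdown-labelled ones (log2 -0.40, adjusted p = 0.0017). Removal of the GC and length trend also gave both calls (0.32 at adjusted p = 0.00237 and -0.44 at 4.85e-05), and the second was also called without the first CAPN2-labelled library (-0.33, 0.0454) and with no filter on low counts (-0.30, 0.0259).

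Of the collagens that act beside laminin-332 in basal cells, collagen VII changed in all comparisons, and no comparison of collagen XVII passed. COL17A1 (ENSG00000065618, chromosome 10, 104031286 to 104085957, minus strand) stood at 317, 342 and 337 CPM in control, 364, 341 and 308 CPM in the knockdown-labelled and 319, 345 and 366 CPM in the CAPN2-labelled libraries. The 3 groups lay over each other. The 95% interval of its log2 fold change ran from -0.16 to 0.21 for the knockdown label against control and from -0.14 to 0.23 for the CAPN2 label against control. After removal of the GC and length trend both were called, at log2 0.20 and 0.18 (edgeR adjusted p = 0.0136 and 0.0135). COL7A1, the collagen of anchoring fibrils (ENSG00000114270, chromosome 3, 48564073 to 48595267, minus strand), stood at 90.7, 102 and 98.7 CPM in control, 70.3, 61.3 and 55.8 CPM in the knockdown-labelled and 279, 272 and 305 CPM in the CAPN2-labelled libraries. No 2 groups overlapped, and the knockdown-labelled libraries were the lowest. COL7A1 fell by 0.64 on the log2 scale under the knockdown label (SE 0.0968, adjusted p = 5.33e-05), and by 0.35 after removal of the GC and length trend (adjusted p = 0.000245). In the CAPN2-labelled libraries it was 4.56-fold higher than in the knockdown-labelled ones (log2 2.19 ± 0.0988, adjusted p = 6.16e-12) and 2.93-fold higher than in control (1.55 ± 0.0965, adjusted p = 1.93e-10). The summed level of the 10 squamous markers, as given above, was lower in both labelled sets than in control. KRT5, one of them, had 63383 to 75986 counts in control. It had 20463 to 23880 in the knockdown-labelled and 24684 to 28658 in the CAPN2-labelled libraries. A sum follows its most abundant genes, and the fall of KRT5 makes up most of the fall of this one. The sum therefore does not show that the other squamous markers fell, and they are not given one by one. The part of these markers in the values of COL17A1 and COL7A1 was not tested.

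Sequence just upstream of the start sites of COL7A1 and LAMB3 is shown because among the 21 genes with a mean of at least 5 CPM these 2 differed most between the CAPN2-labelled libraries and control. Sequences are from RefSeq on GRCh38.p14, each on its gene's strand, up to the base before the RefSeq start or before the first annotated exon, and 41 of the 56 genes had an entry. Capitals mark matches, on either strand, to the GC box GGGCGG, the AP-1 motif TGANTCA or the TATA motif TATAAA, and no match overlaps a match to another motif. The COL7A1 stretch is chr3:48595330-48595579. The first LAMB3 stretch, chr1:209652467-209652675, lies just outside the annotated gene, and the second, chr1:209651395-209651624, lies inside the gene before an inner start.
COL7A1: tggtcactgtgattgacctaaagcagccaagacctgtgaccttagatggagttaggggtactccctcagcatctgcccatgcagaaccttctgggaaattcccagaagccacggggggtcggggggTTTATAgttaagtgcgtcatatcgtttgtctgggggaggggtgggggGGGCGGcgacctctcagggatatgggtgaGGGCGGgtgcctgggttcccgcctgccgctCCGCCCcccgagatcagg
LAMB3 outer start: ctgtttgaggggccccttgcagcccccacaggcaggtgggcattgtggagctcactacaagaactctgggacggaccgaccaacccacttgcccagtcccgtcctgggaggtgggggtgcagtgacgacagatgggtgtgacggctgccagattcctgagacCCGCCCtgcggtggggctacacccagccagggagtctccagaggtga
LAMB3 inner start: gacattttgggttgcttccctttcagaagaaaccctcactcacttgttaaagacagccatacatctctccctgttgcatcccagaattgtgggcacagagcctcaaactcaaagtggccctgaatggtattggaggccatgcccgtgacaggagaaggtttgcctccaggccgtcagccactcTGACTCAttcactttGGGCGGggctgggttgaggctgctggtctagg

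The COL7A1 stretch held 3 GC boxes and 1 TATA motif, and the inner LAMB3 stretch 1 AP-1 motif and 1 GC box. In windows of 250 bases upstream of a RefSeq start, the AP-1 letters occurred in 3 of the 41 matched genes (LAMB3, LAMA3 and COL10A1), against 8.06% of all 27305 genes in the table. GC boxes occurred in 27 of the 41, against 46.2% of all genes, and TATA motifs in 7 of the 41, against 13.05%. A match describes the letters and is not evidence of a bound factor.

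The chains of the laminins that are widespread in basement membranes moved in different directions. LAMA5, the alpha chain of laminin-511 and laminin-521 (ENSG00000130702, chromosome 20, 62307955 to 62367312, minus strand), stood at 647, 663 and 682 CPM in control, at 570, 461 and 389 CPM in the knockdown-labelled and at 899, 958 and 1059 CPM in the CAPN2-labelled libraries. The groups did not overlap, and the knockdown-labelled libraries were both the lowest and the most spread. LAMA5 fell by 0.49 on the log2 scale under the knockdown label (SE 0.111, edgeR adjusted p = 0.00223), and by 0.18 after removal of the GC and length trend (adjusted p = 0.0408). It stood 2.05-fold higher in the CAPN2-labelled than in the knockdown-labelled libraries (log2 1.04 ± 0.112, adjusted p = 4.27e-07), and 1.46-fold higher than in control. LAMA5 shares 244 exon bases with ADRM1 on the other strand, whose own level was 110, 92.7 and 62.5 CPM in the 3 groups, and reads there cannot be told apart without strand, so its values are uncertain.

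LAMB1 and LAMB2 are alternative beta chains, the first in laminin-511 and the second in laminin-521. LAMB1 (ENSG00000091136, chromosome 7, 107923799 to 108003255, minus strand) stood at 86.5, 81.9 and 81.8 CPM in control, at 149, 156 and 139 CPM in the knockdown-labelled and at 76.0, 82.3 and 79.1 CPM in the CAPN2-labelled libraries. It was high in the knockdown-labelled libraries alone, at 1.77 times the control level (log2 0.83 ± 0.0855 SE, edgeR adjusted p = 7.05e-07) and 1.87 times the CAPN2-labelled one (adjusted p = 8.19e-08). The 95% interval of the CAPN2 label against control ran from -0.26 to 0.10. LAMB2 (ENSG00000172037, chromosome 3, 49121114 to 49133118, minus strand) stood at 75.8, 77.7 and 73.9 CPM in control, at 90.9, 91.2 and 81.7 CPM in the knockdown-labelled and at 142, 147 and 150 CPM in the CAPN2-labelled libraries. The CAPN2-labelled libraries were the highest, 1.66-fold above the knockdown-labelled ones (log2 0.73 ± 0.0845, adjusted p = 9.78e-07) and 1.93-fold above control (adjusted p = 2.31e-08). LAMB1 shares 70 exon bases with DLD and 221 with AC005046.1, both on the other strand. DLD stood at 145, 159 and 172 CPM in the 3 groups and AC005046.1 had 118 counts in all, and reads there cannot be told apart, so the values of LAMB1 are uncertain.

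For LAMB2, the smaller difference between the knockdown label and control (log2 0.21 ± 0.0851) did not pass (edgeR adjusted p = 0.0584). It was called without the third knockdown-labelled library (adjusted p = 0.0148) or the first CAPN2-labelled one (0.0479), in DESeq2 (0.0374), with RLE size factors (0.0485), with upper-quartile factors (0.0262) and after removal of the GC and length trend (log2 0.45, 2.75e-05). LAMC1, the gamma chain of both laminins (ENSG00000135862, chromosome 1, 183023460 to 183145592, plus strand), stood at 276, 285 and 282 CPM in control, at 325, 339 and 293 CPM in the knockdown-labelled and at 384, 395 and 400 CPM in the CAPN2-labelled libraries. The groups did not overlap. The rise in the CAPN2-labelled libraries was 1.40-fold over control (log2 0.49 ± 0.0822, adjusted p = 5.24e-05) and 1.23-fold over the knockdown-labelled ones (adjusted p = 0.00499). Between the knockdown label and control LAMC1 differed by 0.18 ± 0.0821 (adjusted p = 0.0889), and it was called without the third knockdown-labelled library (0.0114), with upper-quartile factors (0.0396) and after removal of the GC and length trend (0.00661).

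The other laminin genes were lower in level. LAMA2, the alpha chain of muscle and nerve laminins, stood between 6.29 and 8.96 CPM in all 9 libraries, and no comparison passed, though without the third knockdown-labelled library it was called above control (log2 0.44, edgeR adjusted p = 0.0424). LAMC3 averaged 1.16 CPM and also passed no comparison, though without CAPN2-labelled library 2 it was called below control (log2 -1.16, adjusted p = 0.0374). LAMA4, the alpha chain typical of vessel walls, had 4, 1 and 2 counts in control, 34, 23 and 23 in the knockdown-labelled and 2, 6 and 1 in the CAPN2-labelled libraries. The knockdown-labelled libraries stood above both other groups, at 10.1 times the control level (95% exact interval 4.68 to 25.9, counting error only) and 8.10 times the CAPN2-labelled level (4.06 to 18.3) by summed counts. LAMA4 passed the filter through the knockdown-labelled libraries alone, so these ratios are given as a description, with no test. The 8 endothelial markers, of which CDH5, ERG and VWF were tested and EMCN had 0 counts, summed to 18.3 to 23.9 CPM in control, 45.5 to 51.6 CPM in the knockdown-labelled and 16.8 to 18.2 CPM in the CAPN2-labelled libraries. PECAM1, also on that list, had between 0 and 6 counts per library and so adds little to the sum. The sum rests on other genes of the list, which are not given one by one. The part of that list in the LAMA4 values was not tested. LAMA1, the alpha chain of early embryonic laminin, had 3, 3 and 4 counts in control, 7, 2 and 3 in the knockdown-labelled and 18, 12 and 13 in the CAPN2-labelled libraries. The last group stood apart from both others, at 4.17 times control (2.06 to 9.31) and 3.93 times the knockdown-labelled level (2.04 to 8.20). LAMA1 passed the filter through the CAPN2-labelled libraries alone, and its ratios too are a description.

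Ratios of chains within a library do not depend on how libraries are scaled, and they put numbers on these unequal changes. The trend of each library with GC content and gene length was not removed from them. Ratios with LAMA5 or LAMB1 also carry the shared exon bases given above. LAMB3 to LAMA3 stood at 7.81, 7.64 and 7.28 in control, 8.88, 7.76 and 10.1 in the knockdown-labelled and 19.4, 21.7 and 23.5 in the CAPN2-labelled libraries. The last stood apart from both others, with means of 7.58 ± 0.269, 8.91 ± 1.16 and 21.5 ± 2.06 in that order (SD, n = 3). LAMB1 to LAMB2 stood at 1.14, 1.05 and 1.11 in control, 1.64, 1.71 and 1.70 under the knockdown label and 0.537, 0.561 and 0.527 under the CAPN2 label. The balance of these 2 beta chains was thus 3.11-fold lower in the CAPN2-labelled than in the knockdown-labelled libraries. LAMA5 to LAMC1 went from 2.36 ± 0.0472 in control to 1.48 ± 0.235 and 2.47 ± 0.158. Over 6 pairs and 3 comparisons, 12 of 18 tests had groups that did not overlap. Each of those 12 had a 2-sided exact permutation p of 0.1, the smallest that 3 against 3 libraries can give, and 0.15 after Benjamini-Hochberg adjustment over the 18, so none passed 0.05. The pairs were picked with the levels known.

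**Figure D3:**
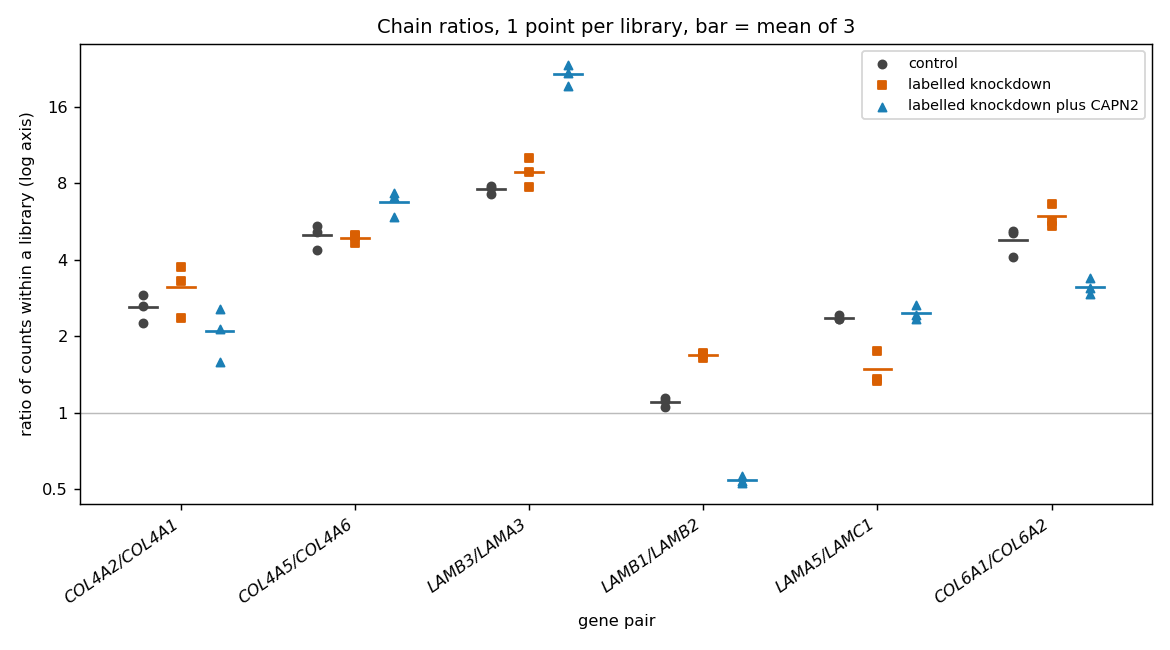
Ratio of the counts of 2 genes within each library (log axis) for 6 pairs of chains, with 1 point per library and a bar at the mean of 3. LAMB1 to LAMB2 falls into 3 separate clusters at 1.10, 1.68 and 0.542, while COL4A2 to COL4A1 overlaps between groups.

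The 6 type IV collagen genes lie in 3 pairs in the genome, each pair head to head with start sites close together, and all 6 were tested. The chains of COL4A1 and COL4A2 form the type IV collagen of nearly all basement membranes. COL4A2 stood at 28.95, 36.4 and 30.2 CPM in control, at 52.7, 36.7 and 41.8 CPM in the knockdown-labelled and at 18.6, 20.7 and 25.0 CPM in the CAPN2-labelled libraries. Groups did not overlap, though the second knockdown-labelled library lay just above the second control library. COL4A2 was 2.04-fold lower in the CAPN2-labelled than in the knockdown-labelled libraries (log2 -1.03 ± 0.141 SE, edgeR adjusted p = 7.09e-06) and 1.49-fold lower than in control (adjusted p = 0.00203). Its rise under the knockdown label (log2 0.45 ± 0.137, adjusted p = 0.0148) was lost without control library 1 or 3 (0.0767 and 0.0628) or the first knockdown-labelled one (log2 0.30, 0.0808), and was larger after removal of the GC and length trend (0.72, 1.1e-05).

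COL4A1 stood at 12.9, 13.8 and 10.4 CPM in control, at 14.1, 15.6 and 12.7 CPM in the knockdown-labelled and at 11.8, 9.69 and 9.79 CPM in the CAPN2-labelled libraries. The CAPN2-labelled libraries were below the knockdown-labelled ones (log2 -0.44 ± 0.144, edgeR adjusted p = 0.0154), a call lost without CAPN2-labelled library 2 or 3 (0.0678 and 0.0543). Against control neither labelled set passed, with log2 differences of 0.20 ± 0.142 and -0.25 ± 0.146, and the first was called after removal of the GC and length trend (log2 0.37, adjusted p = 0.0339). The ratio of COL4A2 to COL4A1 was 2.60 ± 0.328 in control, 3.13 ± 0.707 in the knockdown-labelled and 2.09 ± 0.489 in the CAPN2-labelled libraries (SD, n = 3), and its values overlapped in all comparisons (exact permutation p from 0.2 to 0.3). Between the RefSeq starts of this pair lie 126 bases.

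COL4A5 and COL4A6, paired on chromosome X, encode chains of a type IV collagen of epithelial basement membranes such as that of skin. COL4A5 stood at 37.1, 39.4 and 39.4 CPM in control, at 49.8, 48.5 and 46.6 CPM in the knockdown-labelled and at 81.7, 74.5 and 72.9 CPM in the CAPN2-labelled libraries. The 3 groups did not overlap. COL4A5 rose 1.25-fold under the knockdown label (edgeR adjusted p = 0.0107, and 0.0556 without the first control library) and a further 1.58-fold in the CAPN2-labelled libraries (log2 0.66 ± 0.0904 SE, adjusted p = 7.06e-06). COL4A6 stood at 6.83, 9.02 and 7.63 CPM in control, at 9.90, 10.5 and 9.43 CPM in the knockdown-labelled and at 11.1, 10.6 and 12.4 CPM in the CAPN2-labelled libraries. Groups did not overlap either, and the CAPN2-labelled libraries were 1.45-fold above control (log2 0.53 ± 0.145, adjusted p = 0.00403). Neither step between neighbouring groups passed for COL4A6 (0.34 ± 0.146 and 0.19 ± 0.141, adjusted p = 0.0768 and 0.271). The first was called with upper-quartile factors (adjusted p = 0.0498) and after removal of the GC and length trend (0.00613). COL4A5 to COL4A6 stood at 4.99 ± 0.557 in control, 4.87 ± 0.206 in the knockdown-labelled and 6.76 ± 0.781 in the CAPN2-labelled libraries, the last apart from both others (exact permutation p = 0.1).

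COL4A3 and COL4A4, paired on chromosome 2, encode chains best known from the kidney glomerulus, and both were scarce. COL4A4 stood at 1.35, 1.41 and 1.41 CPM in control, at 2.04, 1.89 and 2.05 CPM in the knockdown-labelled and at 3.70, 4.78 and 3.61 CPM in the CAPN2-labelled libraries. The CAPN2-labelled libraries were the highest, at 2.88 times the control level (log2 1.53 ± 0.245 SE, edgeR adjusted p = 2.87e-05) and 2.02 times the knockdown-labelled one (adjusted p = 0.0012). COL4A3 had 3, 8 and 3 counts in control, 14, 15 and 9 in the knockdown-labelled and 41, 22 and 28 in the CAPN2-labelled libraries. By summed counts it stood in the CAPN2-labelled libraries 6.31 times above control (95% exact interval 3.57 to 12.0, counting error only) and 2.63 times above the knockdown-labelled ones (1.78 to 3.95). COL4A3 would not have passed the filter without the CAPN2-labelled libraries, so no test is given. COL4A3 shares 120 exon bases with the antisense gene AC097662.1, which had 133 counts in all against its own 143, so its values are uncertain.

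Sequence between the starts of 2 of these pairs is shown because both genes of a pair stood higher in the CAPN2-labelled libraries than in control. The stretches are from RefSeq on GRCh38.p14, plus strand, and exclude annotated exons. For COL4A6 and COL4A5, with 379 bases between the starts, the stretch is chrX:108439588-108439837, and for COL4A4 and COL4A3, with 418 bases between them, chr2:227164454-227164564. Capitals mark the same 3 motifs as above. The first stretch, with 51.2% G and C, held none of them, and the second, with 61.3%, held 1 GC box.
COL4A6-COL4A5: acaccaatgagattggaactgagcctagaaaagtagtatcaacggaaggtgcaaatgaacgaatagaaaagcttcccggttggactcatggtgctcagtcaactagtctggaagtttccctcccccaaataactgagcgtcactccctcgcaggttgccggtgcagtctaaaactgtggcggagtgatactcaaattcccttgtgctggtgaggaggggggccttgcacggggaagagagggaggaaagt
COL4A4-COL4A3: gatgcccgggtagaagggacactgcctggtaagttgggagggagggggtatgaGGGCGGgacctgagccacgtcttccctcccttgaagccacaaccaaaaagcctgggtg

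Fibrillar collagens, the fibril formers of connective tissue, were mostly scarce, COL27A1 apart, and 7 of 11 were tested. Against control 6 of the 7, or 85.7%, were called higher in the CAPN2-labelled libraries, against 27.9% of all genes tested. COL11A1 did not pass (log2 0.83 ± 0.399 SE, edgeR adjusted p = 0.0856). Of the 6, COL5A3 reached the filter in the labelled sets only. The calls of COL11A2 and COL5A2 were lost in 8 and 6 of 16 alternatives. COL27A1, a fibrillar collagen of cartilage, was the most abundant, at 55.9, 50.6 and 50.7 CPM in control, 51.4, 33.1 and 33.3 CPM in the knockdown-labelled and 76.7, 76.6 and 82.2 CPM in the CAPN2-labelled libraries. The CAPN2-labelled libraries were the highest, 2.00-fold above the knockdown-labelled ones (adjusted p = 5.11e-06) and 0.58 ± 0.132 above control on the log2 scale (adjusted p = 0.000917). Its fall under the knockdown label (log2 -0.42 ± 0.134, adjusted p = 0.0209), where the first library overlapped control, was lost without the first control library (0.0836), without knockdown-labelled library 2 or 3 (-0.28 at 0.134 and -0.31 at 0.0988), in a fit of the 2 groups alone (0.0584) and after removal of the GC and length trend (-0.18, 0.128). Without the first knockdown-labelled library it was -0.65 (adjusted p = 4.55e-05).

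COL1A1, the first chain of type I collagen, stood at 7.98, 9.61 and 9.35 CPM in control, at 13.7, 11.4 and 10.8 CPM in the knockdown-labelled and at 15.4, 14.8 and 13.4 CPM in the CAPN2-labelled libraries. Both labelled sets lay above control, by 1.33-fold (edgeR adjusted p = 0.0284) and 1.62-fold (log2 0.69 ± 0.139 SE, adjusted p = 0.000308). The former was lost without control library 1 or 3 (0.128 and 0.058) or the first knockdown-labelled one (0.105), and was 0.66 on the log2 scale after removal of the GC and length trend (adjusted p = 0.000388). The difference between the labelled sets did not pass (log2 0.28 ± 0.135, adjusted p = 0.0921), but did without the first knockdown-labelled library (0.0359) and with upper-quartile factors (0.0456). COL5A1, a type V chain that helps start fibrils, stood at 3.72, 3.01 and 2.83 CPM in control, at 5.48, 4.03 and 3.34 CPM in the knockdown-labelled and at 7.65, 8.505 and 6.67 CPM in the CAPN2-labelled libraries, the last 2.39-fold above control (log2 1.26 ± 0.209, adjusted p = 4.19e-05). Its difference under the knockdown label (log2 0.43 ± 0.216, adjusted p = 0.134) was called after removal of the GC and length trend (0.66, 0.0149).

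COL5A3, a further type V chain, had 5, 6 and 3 counts in control, 34, 29 and 30 in the knockdown-labelled and 28, 24 and 20 in the CAPN2-labelled libraries. Both labelled sets stood above control, at 5.87 times (95% exact interval 3.33 to 11.2, counting error only) and 4.99 times (2.79 to 9.58) by summed counts. COL5A3 reached the filter in the labelled sets only, so these ratios are a description. COL11A2, a minor cartilage collagen, stood at 2.64, 1.65 and 0.984 CPM in control, at 1.51, 1.24 and 1.05 CPM in the knockdown-labelled and at 2.22, 2.89 and 3.92 CPM in the CAPN2-labelled libraries. The last were 2.36-fold above the knockdown-labelled ones (log2 1.24 ± 0.334 SE, adjusted p = 0.00458). Its difference from control overlapped and passed narrowly (adjusted p = 0.0474). That call was lost without control library 2 or 3 (0.12 and log2 0.49 at 0.234), knockdown-labelled library 1 or 3 (0.0512 and 0.0541), or CAPN2-labelled library 2 or 3 (0.0814 and 0.223), with the replicate block (0.0545) and in DESeq2 (0.0565).

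Among fibril-associated collagens 3 of 10 were tested. COL12A1, which binds the surface of fibrils (ENSG00000111799, chromosome 6, 75084326 to 75206051, minus strand), stood at 85.3, 85.9 and 85.4 CPM in control, at 143, 154 and 114 CPM in the knockdown-labelled and at 132, 138 and 134 CPM in the CAPN2-labelled libraries. It was higher in both labelled sets, 1.60-fold (log2 0.68 ± 0.0996 SE, edgeR adjusted p = 3.93e-05) and 1.57-fold (log2 0.65 ± 0.0997, adjusted p = 1.7e-05). The 95% interval of the difference between these sets ran from -0.23 to 0.18. COL16A1 stood at 14.3, 11.7 and 9.29 CPM in control, at 9.09, 4.98 and 10.1 CPM in the knockdown-labelled and at 16.2, 14.6 and 18.2 CPM in the CAPN2-labelled libraries. The CAPN2-labelled libraries were 2.04-fold above the knockdown-labelled ones (log2 1.03 ± 0.206, adjusted p = 0.000456). The fall of COL16A1 under the knockdown label (log2 -0.56 ± 0.21, adjusted p = 0.0482) was lost in 11 of 16 alternatives, and over all 16 it ranged from -0.75 to -0.27, with adjusted p up to 0.287. They include the loss of control library 1 or 2 (0.212 and 0.106), of knockdown-labelled library 1 or 2 (0.051 and 0.273) and of any CAPN2-labelled library (0.0805, 0.057 and 0.0593). Its difference between the CAPN2 label and control (log2 0.47 ± 0.202, adjusted p = 0.0541) passed without the first control library (0.0271) or knockdown-labelled library 2 or 3 (0.0109 and 0.0488), and in 6 other alternatives.

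COL9A3, a chain of cartilage collagen IX, stood at 5.82, 7.96 and 5.47 CPM in control, at 3.09, 1.49 and 1.82 CPM in the knockdown-labelled and at 2.72, 3.48 and 3.12 CPM in the CAPN2-labelled libraries. It was lower in both labelled sets, 3.03-fold (log2 -1.60 ± 0.252 SE, edgeR adjusted p = 7.97e-05) and 2.06-fold (log2 -1.05 ± 0.243, adjusted p = 0.00118). The second was -0.67 after removal of the GC and length trend (adjusted p = 0.011). Between the labelled sets the difference of 0.55 ± 0.267 did not pass (adjusted p = 0.0935), but did without the first knockdown-labelled library (log2 0.90, 0.0104) and after removal of the GC and length trend (0.0302). COL9A3 shares 45 exon bases with TCFL5 on the other strand, which stood at 27.1, 21.9 and 16.1 CPM in the 3 groups, so its values are uncertain.

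Type VI collagen, which forms beaded filaments, was represented by COL6A1 and COL6A2, neighbours on chromosome 21. COL6A1 stood at 11.6, 12.1 and 9.41 CPM in control, at 12.8, 10.5 and 10.8 CPM in the knockdown-labelled and at 15.6, 17.8 and 17.99 CPM in the CAPN2-labelled libraries. COL6A2 stood at 2.23, 2.95 and 1.85 CPM, at 1.92, 1.84 and 1.99 CPM and at 5.31, 5.26 and 5.81 CPM in the same order. Both were highest in the CAPN2-labelled libraries, which overlapped neither other group. COL6A1 rose there 1.51-fold over the knockdown-labelled libraries (log2 0.59 ± 0.136 SE, edgeR adjusted p = 0.00135) and COL6A2 2.84-fold (log2 1.51 ± 0.221, adjusted p = 1.57e-05). COL6A1 to COL6A2 stood at 4.80 ± 0.612 in control, 5.93 ± 0.65 in the knockdown-labelled and 3.14 ± 0.229 in the CAPN2-labelled libraries (SD, n = 3, exact permutation p = 0.1 for each difference). For COL6A1 the difference of 0.04 ± 0.14 under the knockdown label (adjusted p = 0.85) was called after removal of the GC and length trend (log2 0.31, adjusted p = 0.046).

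COL18A1, whose protein carries endostatin at its end, was, with COL4A1 and COL4A2, one of 3 collagens of at least 5 CPM whose mean was lowest in the CAPN2-labelled libraries. It stood at 56.1, 59.5 and 58.2 CPM in control, at 58.7, 38.2 and 47.2 CPM in the knockdown-labelled and at 29.5, 33.0 and 38.3 CPM in the CAPN2-labelled libraries. The last lay 1.72-fold below control (log2 -0.79 ± 0.132 SE, edgeR adjusted p = 4.88e-05). They were 1.43-fold below the knockdown-labelled ones (adjusted p = 0.0033), whose second library overlapped them. Under the knockdown label the difference from control did not pass (log2 -0.27 ± 0.13, adjusted p = 0.112), but did without the first knockdown-labelled library (-0.44, 0.00739). COL18A1 shares 1401 of its 8525 exon bases with SLC19A1 on the other strand. SLC19A1, a folate transporter gene, stood at 101 ± 2.40, 72.1 ± 6.47 and 42.9 ± 3.47 CPM in the 3 groups, and was called lower in each comparison in which COL18A1 was. SLC19A1 was also called lower under the knockdown label than in control (log2 -0.48 ± 0.0944, edgeR adjusted p = 0.000635), where COL18A1 did not pass. Reads of the 2 genes cannot be told apart without strand in these bases, so the values of COL18A1 are uncertain.

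Of the 14 tested genes with a mean under 5 CPM, 6 have not been described by sample: COL28A1, COL5A2, COL11A1, LAMC3, COL8A1 and COL8A2. They averaged between 0.436 and 3.75 CPM. COL28A1 and COL5A2 were called higher in the CAPN2-labelled libraries than in control, by 1.44-fold and 1.74-fold (edgeR adjusted p = 0.0359 and 0.0406), and each call was lost in 6 of 16 alternatives. For COL28A1 these include the loss of control library 1 or 3 (0.158 and 0.0736) or of CAPN2-labelled library 2 or 3 (0.144 and 0.0569). For COL5A2 they include the loss of control library 2 or 3 (0.182 and 0.104) or of CAPN2-labelled library 2 or 3 (0.144 and 0.067). No other comparison of these 6 genes passed in the test used throughout, before any alternative. Between the labelled sets COL5A2 was called without knockdown-labelled library 1 (log2 0.95, edgeR adjusted p = 0.0301). COL28A1 was called higher there after removal of the GC and length trend (0.48, 0.0454) and with upper-quartile factors (0.51, 0.0464). COL8A1 stood at 0.586 ± 0.0922 CPM in control, 1.02 ± 0.138 in the knockdown-labelled and 0.524 ± 0.142 in the CAPN2-labelled libraries (SD, n = 3). It passed the filter only with the knockdown-labelled libraries, so these values are a description.

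Genes that process, accompany or bind these proteins were counted from 4 lists, shown in the plot of lists. Over all genes tested, 16.0% were called higher and 18.5% lower under the knockdown label against control. The shares were 23.7% and 25.6% between the labelled sets, and 27.9% and 28.4% for the CAPN2 label against control. The lists, like the members, are read against these shares and the medians over all genes given above. No list was tested as a set. Collagen processing comprises the enzymes and chaperones that hydroxylate, fold, trim and cross-link collagen chains. Under the knockdown label 8 of its 24 tested genes rose, 2 fell and 14 did not pass against control. P3H2, a prolyl 3-hydroxylase, rose 4.36-fold from 22.6 ± 0.542 to 98.6 ± 1.75 CPM (edgeR adjusted p = 5.35e-12), and the lysyl oxidase gene LOX 9.87-fold from 1.74 ± 0.284 to 17.3 ± 1.18 CPM (adjusted p = 7.66e-11). LOXL4, another lysyl oxidase gene, and COLGALT1, which adds galactose to collagen, fell by 0.64 and 0.26 on the log2 scale (adjusted p = 0.00135 and 0.0268). In the CAPN2-labelled against the knockdown-labelled libraries 6 rose, 12 fell and 6 did not pass. LOXL4 rose 3.91-fold and MIA2, which helps export large cargo from the endoplasmic reticulum, 2.83-fold, while P3H2 fell by 0.96 and LOX by 1.49 on the log2 scale. Against control 12 rose, 6 fell and 6 did not pass. MIA2 and the prolyl isomerase gene PPIB rose 2.75-fold and 2.59-fold, and COLGALT1 and the collagen chaperone gene SERPINH1 fell 2.06-fold and 1.86-fold. The median log2 fold change of the list was 0.16, -0.23 and 0.56 in the 3 comparisons.

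Among 12 tested basement membrane partners 2 rose and 5 fell under the knockdown label, 5 rose and 2 fell in the CAPN2-labelled against the knockdown-labelled libraries, and 5 rose and 5 fell against control. HSPG2, which encodes the basement membrane proteoglycan perlecan, fell from 24.2 ± 0.951 CPM in control to 10.7 ± 1.64 CPM under the knockdown label (edgeR adjusted p = 5.41e-07). It rose to 50.2 ± 1.33 CPM in the CAPN2-labelled libraries, 4.71-fold above the knockdown-labelled ones (adjusted p = 3.26e-11). NTN4, a netrin that binds laminin, rose 3.99-fold under the knockdown label and was 3.73-fold above control in the CAPN2-labelled libraries. FBLN1, a fibulin, fell 1.76-fold and 1.82-fold against control in the 2 labelled sets. LAD1, an anchoring filament gene, was 2.61-fold below control in the CAPN2-labelled libraries. The medians of this list were -0.35, 0.29 and 0.05.

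Receptors divided too. Of 9 tested collagen receptor genes 3 rose and 3 fell under the knockdown label, 4 rose and 2 fell in the CAPN2-labelled against the knockdown-labelled libraries, and 3 rose and 1 fell against control. ITGA2, the alpha chain of a collagen-binding integrin, rose from 51.6 ± 4.50 to 95.5 ± 15.6 CPM under the knockdown label (edgeR adjusted p = 1e-05) and stood 2.10-fold lower in the CAPN2-labelled libraries (adjusted p = 4.23e-07). MRC2, a receptor that takes up collagen, fell 2.34-fold under the knockdown label and was 2.05-fold higher in the CAPN2-labelled libraries. Of 11 tested laminin receptor genes 3 rose and 3 fell, then 2 rose and 3 fell, and against control 2 rose and 5 fell, in the same order of comparisons. ITGA6, whose integrin binds laminin in hemidesmosomes, rose 1.52-fold under the knockdown label while its partner there, ITGB4, fell 1.45-fold (adjusted p = 3.51e-05 and 0.00029). DST, which encodes a plakin that links hemidesmosomes to keratin, stood 3.56-fold above the knockdown-labelled libraries in the CAPN2-labelled ones, at 480 ± 34.98 against 135 ± 29.1 CPM (adjusted p = 4.53e-08). The medians were -0.16, 0.23 and 0.30 for collagen receptors and -0.22, 0.11 and -0.14 for laminin receptors.

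**Figure D4:**
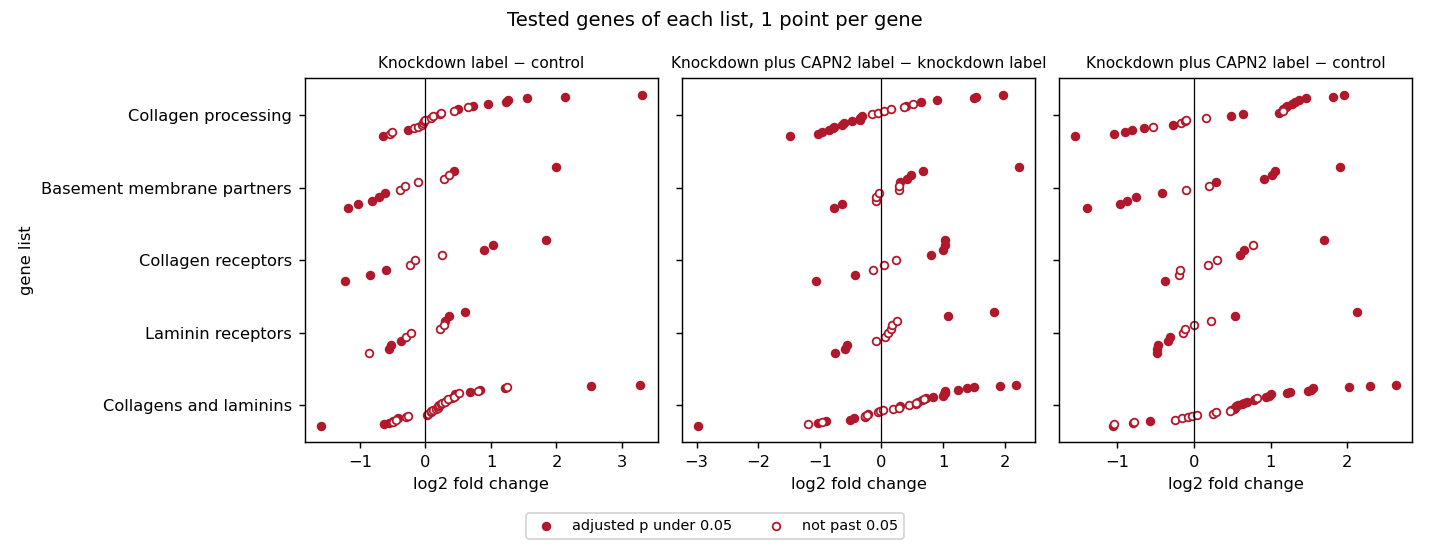
Log2 fold change of each tested gene (1 point per gene) in 4 lists of related genes and in the collagens and laminins, for the 3 comparisons, with filled points for adjusted p under 0.05. Against control, the CAPN2-labelled libraries show 21 of 35 collagens and laminins higher and 3 lower, and 12 of 24 collagen processing genes higher and 6 lower.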

How the data were processed

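RNA of 9 FaDu cultures was sequenced after TRIzol extraction and library preparation with a NEBNext Ultra RNA kit, per the labels' protocols. The authors deposited raw counts of reads per gene, whole numbers that were not normalised, and gene lengths in bases. The tools listed, per the submitters' processing notes, are featureCounts 1.5.0-p3, HISAT2 2.0.5 and StringTie 1.3.3b, and the build is hg19. The deposited coordinates equalled those of GENCODE v29 on GRCh38 for 58735 of 58735 genes. The strand setting is not given in the sources used here.

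The test was that of edgeR 4.0.16, run in R 4.3.3: filterByExpr (at least 10 counts, by group) kept 16812 genes, TMM factors scaled the libraries, and a robust quasi-likelihood model of the 3 group means was fitted to all 9 libraries (6 residual degrees of freedom). P-values were adjusted by Benjamini-Hochberg over all genes tested, with a threshold of 0.05. Each SE was obtained from the fold change and the F statistic of its test. The steps were tested on simulated data. Alternatives were DESeq2 1.42.0, RLE or upper-quartile factors, no filter, the 2 groups alone, the replicate block, each library left out, and removal of a spline trend with GC content and length. CPM values are the deposited counts scaled by TMM. The test did not pair samples by replicate number, and the labels do not say whether the numbers mark pairs. Genes were named by a rule: members of at least 5 CPM, those under it with a called change of at least 2-fold, and up to 2 risen and 2 fallen genes per list and comparison with the lowest adjusted p. Genes correlated with the leading members are not reported, because the libraries fall into 3 separate groups. Members, lists and pairs were chosen with earlier results of these data known. P-values measure the spread between these cultures of 1 line. Of the 56 genes, 1 enters the counts and medians but is not reported here on its own.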

Additional observations from a re-analysis of the deposited data

How the results depend on the processing

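No direction of a called difference reversed among the 35 tested genes in 16 alternatives per comparison. Of the calls, 9 of 14 for the knockdown label against control, 18 of 21 between the labelled sets and 21 of 24 for the CAPN2 label against control were kept in every alternative. The kept calls include LAMA4 and COL5A3 in the first comparison and LAMA4 and LAMA1 in the second. In the third they include COL5A3, LAMA1 and COL4A3. As given above, these genes were tested only through groups in which they were high. The share of kept calls over all genes was not computed. With one library left out, the number called was 9 to 18 for the knockdown label against control (9 without the first control library), 19 to 23 between the labelled sets and 21 to 25 for the CAPN2 label against control. In the first comparison these are 24.3% to 47.4% of the tested members, against 24.6% to 37.0% of all genes. They are 50.0% to 62.2% against 40.8% to 48.9% in the second, and 55.3% to 69.4% against 47.8% to 57.3% in the third. The median log2 fold change between the labelled sets was 0.45, and moved by more than 1 SD of the median over the 3 CAPN2-labelled libraries (0.0132), to 0.51 with upper-quartile factors, 0.41 with no filter, 0.50 in the fit of the 2 groups alone and 0.48 after removal of the GC and length trend, and lay between 0.31 and 0.48 with one library left out. For the CAPN2 label against control it moved from 0.58 to 0.69 with upper-quartile factors, which moved the median of all genes from 0.02 to 0.13. The cause of these shifts was not tested. With the replicate block 14, 20 and 24 genes were called in the 3 comparisons, against 14, 21 and 24 without it. The numbers gave no sign of pairing, since same-numbered libraries of different groups had correlations of deviations from -0.111 to 0.063 and others from -0.186 to 0.132. With no filter 55 of the 56 genes entered the fit. Of the low-count genes COL2A1 alone was called there, lower in the CAPN2-labelled libraries than in both other groups (edgeR adjusted p = 0.0227 against the knockdown label and 0.0164 against control). It had 0, 4 and 7 counts in control, 4, 3 and 4 under the knockdown label and 0 in each CAPN2-labelled library, and was chosen for mention after its values were seen. Across genes, which are not independent replicates, log2 fold change and GC content had a Spearman's rho of -0.363, -0.0831 and -0.287 in the 3 comparisons (16812 genes).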
